A study of Mus musculus with 100 samples.

Results

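Levels of 33 genes of ribosome biogenesis were followed in mouse embryonic stem (ES) cells after single subunits of TFIID, Mediator or the SAGA coactivator had been lowered by short hairpin RNA (shRNA). The genes were taken by symbol from a given list of 34, and for each the RefSeq transcript with the highest mean level over all libraries was used. They are 33 of 24210 named genes in the deposited tables. Noc2l was not analysed here. Ribosome biogenesis is the making of ribosomal RNA by RNA polymerase I in the nucleolus, its modification and cleavage, and its assembly with ribosomal proteins into a small and a large subunit. Small nucleolar ribonucleoprotein particles (snoRNPs) place the modifications, and separate sets of assembly factors carry each subunit forward. Dividing ES cells make ribosomes at a high rate, and many genes of the pathway are known targets of the transcription factor Myc, which binds the E-box CACGTG.

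The study sequenced messenger RNA from V6.5 ES cells to find subunits of the Pol II pre-initiation complex that contribute most to transcription. TFIID recognises the core promoter, and Mediator connects factors bound at enhancers with RNA polymerase II. There were 100 libraries in 50 groups of 2, all from cells transfected with 1.8 µg of plasmid, given puromycin at 1 µg/ml from 24 h and selected for 72 h, after removal of feeder fibroblasts. The 3 control groups received the shControl plasmid, and each of 47 knockdown groups received a hairpin plasmid against 1 subunit. Control set A holds hairpins against Tbp and 14 TAF subunits of TFIID and against the Mediator tail subunits Med15, Med16, Med23, Med24 and Med25. Control set B holds hairpins against 23 further Mediator subunits and against Gcn5 (gene Kat2a) and Usp22 of SAGA. Control set C holds Med1 and Med14. The cells are 1 line. Whether the paired libraries of a group stem from separate cultures is not in the labels, and the p-values therefore speak of library-to-library spread alone, which may be technical.

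The number of reads behind the RPKM values (reads scaled by transcript length and library size) was 17.25 to 39.32 M per library. In set B the targeted gene was at 14.2 to 60.5% of its control level in replicate 1 and at 14.5 to 68.9% in replicate 2. In set A it was at 15.9 to 59.0% in the replicate 2 libraries (median 34.1%) and at 56.9 to 172.7% in the replicate 1 libraries (median 102.4%), where shMed16 was lowest and the other 19 were at 77.4% or more. The 20 replicate 1 libraries of these knockdowns, most of which go against their labels, enter no comparison, and are used only in the pair differences of this paragraph and in an alternative fit over all 100 libraries. In set C it was at 66.0% (Med1) and 61.5% (Med14) in replicate 1 and at 97.9% and 99.1% in replicate 2. The 11 ES cell markers summed to 1769 to 1822 RPKM in control_B and the 12 feeder fibroblast markers to 3.09 to 3.36 RPKM, with Lum at 0 in both libraries. The median difference of the 33 genes between the 2 libraries of a group was 0.131 in set A, 0.044 in set B and 0.112 in set C on the log2 scale. Values are shares of a library with no spike-in, so a change is relative to all reads of its library. In bulk RNA, fewer cells of a type and less RNA per cell cannot be told apart.

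The promoters shown here belong to the genes with the largest median falls over the 23 Mediator knockdowns that have an entry in RefSeq's table of GRCm38.p6 (Wdr12, Dkc1 and Nop56), to the gene with the highest median (Nop14), and to Nop2, added after the search because it is the member with an E-box upstream of its start. Each run holds the 250 bases before the annotated start in the direction of the gene. They lie at chr1:60098501-60098750 on the minus strand (Wdr12, the most upstream of its 3 start sites), chrX:75095604-75095853 on the plus strand (Dkc1), chr2:130274162-130274411 on the plus strand (Nop56), chr6:125131633-125131882 on the plus strand (Nop2) and chr5:34660149-34660398 on the minus strand (Nop14). Capitals mark the E-box CACGTG, which reads the same on both strands.
Wdr12: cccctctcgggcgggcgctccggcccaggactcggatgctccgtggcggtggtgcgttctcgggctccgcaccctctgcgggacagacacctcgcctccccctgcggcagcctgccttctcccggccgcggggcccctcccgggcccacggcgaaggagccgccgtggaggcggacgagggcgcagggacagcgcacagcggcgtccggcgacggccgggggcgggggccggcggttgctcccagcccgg
Dkc1: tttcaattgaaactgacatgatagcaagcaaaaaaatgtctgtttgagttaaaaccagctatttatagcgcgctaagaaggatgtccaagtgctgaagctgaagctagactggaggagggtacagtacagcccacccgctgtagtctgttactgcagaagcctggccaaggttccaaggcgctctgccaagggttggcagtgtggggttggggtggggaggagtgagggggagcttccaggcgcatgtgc
Nop56: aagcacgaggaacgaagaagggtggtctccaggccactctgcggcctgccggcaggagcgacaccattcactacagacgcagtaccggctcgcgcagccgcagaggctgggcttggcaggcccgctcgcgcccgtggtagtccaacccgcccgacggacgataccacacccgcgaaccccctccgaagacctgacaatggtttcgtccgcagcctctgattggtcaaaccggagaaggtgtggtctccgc
Nop2: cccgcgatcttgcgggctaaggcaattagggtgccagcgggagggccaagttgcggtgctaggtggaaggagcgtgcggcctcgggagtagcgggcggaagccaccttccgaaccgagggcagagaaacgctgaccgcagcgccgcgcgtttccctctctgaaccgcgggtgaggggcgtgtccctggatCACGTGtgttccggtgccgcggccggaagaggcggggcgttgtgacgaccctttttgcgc
Nop14: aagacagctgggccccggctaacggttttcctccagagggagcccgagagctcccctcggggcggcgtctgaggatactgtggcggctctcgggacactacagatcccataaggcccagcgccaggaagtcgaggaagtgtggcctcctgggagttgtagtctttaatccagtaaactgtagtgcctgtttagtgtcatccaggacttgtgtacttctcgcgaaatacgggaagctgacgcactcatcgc
The E-box of Nop2 starts 60 bases before the start site, and the other 4 windows hold none. In windows of 250 bases before to 50 after the start, the E-box was found in 6 of the 27 members with an entry (22.2%): Nop2, Wdr43, Ltv1, Mybbp1a, Utp20 and Pes1. The share was 18.9% in 18 of 95 other ribosome biogenesis genes and 8.09% in 2187 of all 27025 genes of the table. The median GC content of these windows was 58.3% in the members and 52.8% in all genes. A match of letters is a description of these windows only.

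Across the 25 knockdowns of set B, ribosome biogenesis genes fell far more often than they rose. Of the 825 member comparisons with control_B, 333 were called lower (40.4%) and 25 higher (3.03%), by limma with Benjamini-Hochberg adjustment over all genes at 0.05. Over all 12505 genes tested in the same fit, 15.4% of comparisons were called lower and 16% higher. Of the 33 genes, 31 had a median change below 0 over the 23 Mediator knockdowns, against 52% of all genes. All 25 comparisons share the 2 control_B libraries, and all 33 genes passed the filter on low values in every fit.

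The falls were concentrated in 10 of the knockdowns. In each of shMed4, shMed10 and shMed30, 32 of 33 genes were lower and none higher, with a median log2 change of -0.41 in all 3. Of all genes, 32.5% were lower and 29.8% higher in shMed4, 34.3 and 31.5% in shMed10, and 26.1 and 33.0% in shMed30. The same background shares, lower and higher, follow each count. In shMed28, 32 genes were lower (median -0.33, background 27.7 and 32.3%), and in shMed12 31 were (median -0.35, background 31.9 and 27.3%). The count was 30 in shMed17 (median -0.24, background 25.8 and 23.7%), 27 in shMed19 (median -0.22, background 26.3 and 23.2%) and 26 in shMed27 (median -0.21, background 17.2 and 21.0%), with none higher in these 5. It was 21 in shMed31 (median -0.12, background 12.1 and 17.7%), again with none higher, and 20 in shMed7 (median -0.11, background 25.8 and 20.5%), where Nop14 alone was higher. The median over all genes lay between -0.03 and 0.03 in these comparisons.

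Leaving out any 1 library of a comparison kept the number lower within 1.5 times in these 10. The 1 higher call of shMed7 was 2 without its replicate 1 and 0 without its replicate 2. Pooling the spread with that of the other sets, in a fit over the 80 libraries that leaves out those 20, gave 32 in shMed10 and shMed30, 31 in shMed4 and shMed12, 30 in shMed28, 28 in shMed17, 25 in shMed19, 21 in shMed27, 15 in shMed7 and 13 in shMed31. This fit was chosen after seeing the data. The fit over all 100 libraries, which takes the 20 as replicates of groups most of them go against, gave fewer calls: 28 in shMed10, 27 in shMed4, 25 in shMed30, 22 in shMed28, 19 in shMed12, 10 in shMed17, 5 in shMed19 and 0 in shMed27, shMed31 and shMed7.

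**Figure D1:**
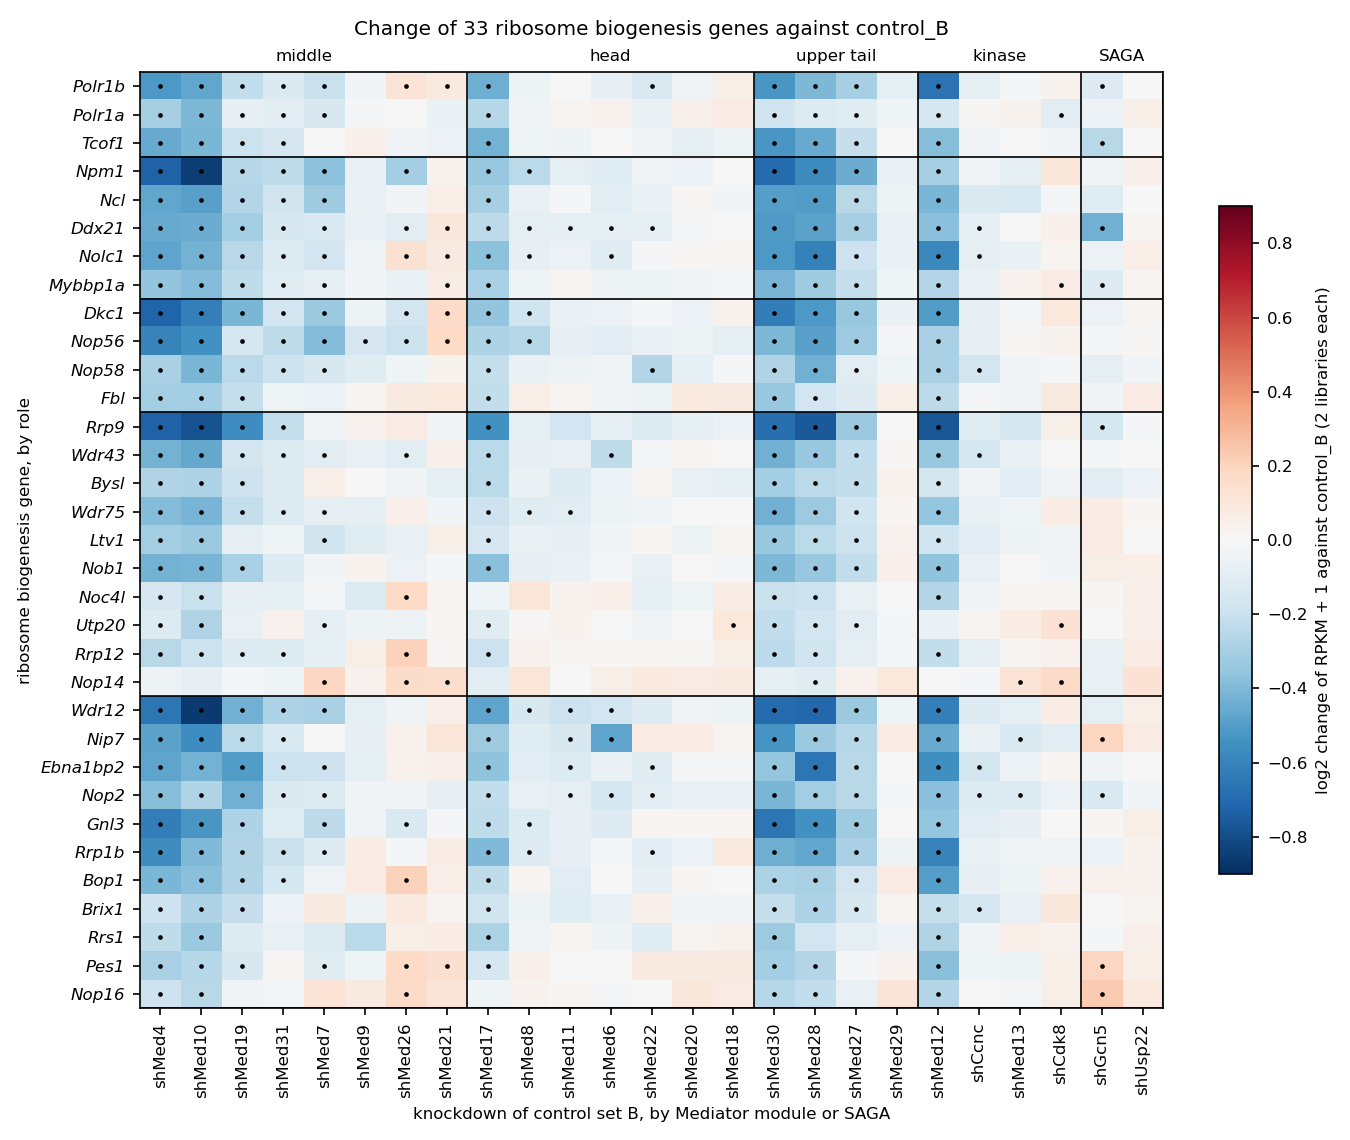
Log2 change of RPKM + 1 of 33 ribosome biogenesis genes (rows, in blocks by role) in 25 knockdowns against control_B (columns, by Mediator module or SAGA, 2 libraries a group). Dots mark an adjusted p under 0.05 by limma, blue is lower and red is higher. The columns of shMed4, shMed10 and shMed30 each hold 32 dots, all lower, and the row of Nop14 holds 1 lower and 5 higher.

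In the other 15 knockdowns of set B most of the genes did not pass the test. The knockdowns shMed26, shMed21 and shGcn5 among them are described after the roles. The count lower was 9 in shMed8 (background 10.0 and 13.0%), 7 in shCcnc (7.46 and 9.54%), and 6 each in shMed6 (7.78 and 6.35%), shMed11 (7.68 and 8.96%) and shMed22 (11.5 and 11.9%), with none higher. In shMed13 2 were lower and 1 higher (11.8 and 9.27%), in shCdk8 1 lower and 3 higher (6.51 and 9.48%) and in shMed9 1 lower (4.41 and 5.17%). In shMed18 1 gene was higher and none lower (4.88 and 3.90%). In shMed20 limma called 0 of 33 in either direction, with 3 lower and 0 higher at an unadjusted p under 0.05 (background 5.73 and 5.69%). It also called 0 in shMed29, with 3 lower and 2 higher unadjusted (7.57 and 9.13%), and 0 in shUsp22, with 0 lower and 2 higher unadjusted (1.86 and 2.46%). Without replicate 1 of control_B the count was 4 in shMed8, 4 in shCcnc, 0 in shMed11 and 3 in shMed22. Without replicate 2 of control_B it was 5 in shMed8 and 3 in shMed11. Without replicate 1 of shMed8 it was 4, without replicate 2 of shMed11 it was 1 and without replicate 2 of shMed22 it was 3. Leaving out single libraries gave 1 to 3 lower and 0 higher in shMed13, 0 lower and 1 to 2 higher in shCdk8, 0 to 4 lower in shMed9 and 0 higher in shMed18. In the fit over 80 libraries the count lower was 3 in shMed6, 2 each in shMed8, shCcnc and shMed22, 1 in shMed13 and 0 in shMed11, shMed9 and shCdk8, and 1 was higher in shCdk8 and 0 in shMed13 and shMed18. In that over all 100, 1 gene was lower in shMed6 and 1 in shGcn5, and none of the other calls in these 15 knockdowns was made.

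RNA polymerase I and its activator were lower in the strongest knockdowns. Polr1b, the second largest subunit of the polymerase, measured 27.4 and 26.4 RPKM in the control_B libraries and 16.5 and 16.7 in shMed12. Both shMed12 libraries were below both controls, and the log2 change was -0.67 ± 0.03 (standard error, n = 2 a group, limma adjusted p 5.3e-18). Polr1a, the largest subunit, changed less in the same cells, from 34.1 and 34.8 RPKM to 30.9 and 30.7 in shMed12 (-0.16 ± 0.03, limma adjusted p 8.3e-05). In shMed10 it measured 24.5 and 27.2 RPKM (-0.40 ± 0.03), its largest fall. Tcof1, encoding treacle, which binds the polymerase at ribosomal DNA, measured 49.3 and 47.6 RPKM in control_B and 33.5 and 33.2 in shMed30, its lowest group (-0.52 ± 0.04). These 3 genes were lower in all of shMed4, shMed10, shMed12, shMed17, shMed19, shMed27, shMed28, shMed30 and shMed31, while 2 of the 3 were lower in shMed7.

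The 5 multifunctional nucleolar proteins were all lower in each of the 10 knockdowns. Npm1, encoding nucleophosmin, an abundant nucleolar chaperone, had the highest level of the 33 genes in control_B, 454 ± 13.8 RPKM (SD, n = 2), and the lowest median over the Mediator knockdowns (-0.23). It measured 444 and 464 RPKM in control_B, 249 and 254 in shMed10, 266 and 280 in shMed4, 273 and 289 in shMed30 and 361 and 376 in shMed12. The groups do not overlap, and shMed10 was lowest (-0.85 ± 0.04, limma adjusted p 3.3e-17). In shCdk8 Npm1 measured 483 and 494 RPKM, above both controls, but this difference did not pass the test (0.11 ± 0.04, limma adjusted p 0.093). Ncl (nucleolin, which binds nascent ribosomal RNA) fell by 0.41 to 0.50 on the log2 scale in shMed4, shMed10, shMed30 and shMed12. Ddx21, an RNA helicase of the nucleolus, was called lower in more knockdowns than any other member, 17 of 25. Its levels were 114 and 113 RPKM in control_B, 79.0 and 80.0 in shMed30 and 81.3 and 84.2 in shMed4. Nolc1, which binds snoRNPs, fell most in shMed28 (-0.60), and Mybbp1a, a Myb-binding protein of the nucleolus, most in shMed30 (-0.42).

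Among the snoRNP core proteins, Dkc1 and Nop56 changed most. Dkc1, the pseudouridine synthase of the box H/ACA particles, measured 60.1 and 62.6 RPKM in control_B, 36.3 and 37.3 in shMed4, 38.5 and 40.7 in shMed10, 39.7 and 39.2 in shMed30 and 40.9 and 45.2 in shMed12. All 8 knockdown libraries lie below both controls, with the largest change in shMed4 (-0.72 ± 0.04, limma adjusted p 1.7e-15). Nop56, a scaffold of the box C/D particles, fell from 115 and 121 RPKM to 75.6 and 79.4 in shMed4 (-0.60 ± 0.04) and to 93.3 and 99.1 in shMed12 (-0.29 ± 0.04). Both were also called higher in shMed21, where Dkc1 measured 67.8 and 70.9 RPKM and Nop56 131 and 136. Nop58, the partner of Nop56, was lower in 12 of 25 knockdowns. Fbl (fibrillarin, the methyltransferase of these particles) was lower in 7 and changed less, with its lowest value in shMed30 (-0.34).

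Among the 10 small subunit factors, Rrp9 and Nop14 stood at opposite ends. Rrp9, a protein of the U3 snoRNP, measured 57.1 and 53.5 RPKM in control_B, 33.2 and 30.3 in shMed10, 33.7 and 32.2 in shMed4 and 32.8 and 31.2 in shMed12. The 6 knockdown libraries were all below both controls, by -0.78 ± 0.06 in shMed10, -0.73 ± 0.06 in shMed4 and -0.77 ± 0.06 in shMed12. Nop14, which joins the small subunit processome, was at the other end, with a median of 0.04 and calls in 1 knockdown lower and 5 higher, the fewest lower of any member. It measured 37.8 and 37.1 RPKM in control_B and 35.1 and 37.3 in shMed4, where the groups overlap (-0.05 ± 0.04, limma adjusted p 0.36). It was higher in shMed7, shMed13, shMed21, shMed26 and shCdk8, for example at 42.3 and 42.1 RPKM in shCdk8 (0.17 ± 0.04, limma adjusted p 0.0074). Wdr43, of the early processome, was lower in 13 of 25 knockdowns and Wdr75 in 12. The late factors Bysl, Ltv1 and Nob1, the endonuclease that trims the small subunit RNA, were lower in 8 each. Utp20 was lower in 7 and Rrp12, an export factor, in 8, while Noc4l, a partner of Nop14 in yeast, was lower in 5.

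Of the 11 large subunit factors, Wdr12 fell most. Wdr12 forms the PeBoW complex with Pes1 and Bop1, which is needed to process the large subunit RNA. It measured 18.3 and 16.9 RPKM in control_B, 10.5 and 11.3 in shMed4, 9.37 and 9.07 in shMed10, 10.8 and 10.3 in shMed30 and 10.8 and 11.5 in shMed12. The 8 knockdown libraries are all below both controls, and the change in shMed10 was -0.86 ± 0.05 (limma adjusted p 2.5e-15), the lowest value of any member. The partners changed less in the same comparison, Bop1 by -0.38 ± 0.06 and Pes1 by -0.25 ± 0.04. Nop2, an RNA methyltransferase, was lower in 16 of 25 knockdowns, with levels of 65.3 and 64.0 RPKM in control_B, 48.2 and 48.6 in shMed30 and 49.0 and 50.0 in shMed12. Gnl3 (nucleostemin, a GTPase abundant in stem cells) fell from 103 and 105 RPKM to 64.2 and 67.7 in shMed30 (-0.65 ± 0.04). Ebna1bp2, needed in yeast for early large subunit assembly, was lowest in shMed28 (-0.65) and lower in 13 knockdowns. Rrp1b, a nucleolar partner of protein phosphatase, was lowest in shMed12 (-0.60) and Nip7, a processing factor, in shMed10 (-0.56), each lower in 12. Bop1 and Brix1 were lower in 9 knockdowns each, Pes1 in 8, Gnl3 in 11 and Wdr12 in 13. Rrs1, which in yeast brings the small ribosomal RNA of the large subunit into the particle, and Nop16 were lower in 5 each. Rrs1 had the largest standard errors among these genes (0.08).

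**Figure D2:**
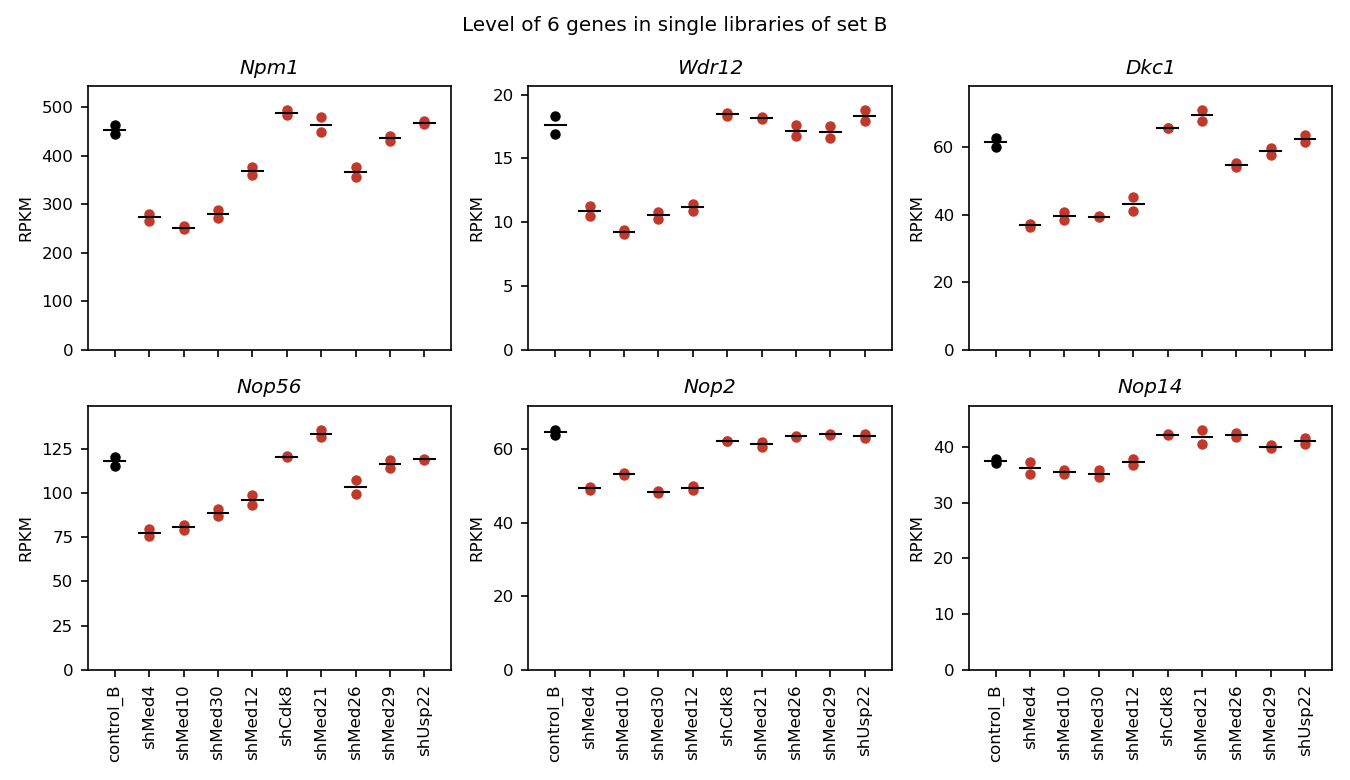
Level in RPKM (vertical axis from 0) of Npm1, Wdr12, Dkc1, Nop56, Nop2 and Nop14 in single libraries of control_B (black) and of 9 knockdowns (red), with a line at the mean of the 2 libraries. In shMed4, shMed10, shMed30 and shMed12 the libraries of the first 5 genes lie below both controls, while those of Nop14 stay within 34.5 to 37.8 RPKM together with the controls.

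The medians of all 5 roles lay below 0 in the strongest knockdowns. In shMed4 the median log2 change was -0.45 for the RNA polymerase I genes, -0.47 for the multifunctional nucleolar proteins, -0.46 for the snoRNP cores, -0.29 for the small subunit factors and -0.41 for the large subunit factors. In shMed12 the 5 medians were -0.38, -0.38, -0.29, -0.24 and -0.38 in the same order. The small subunit factors had the smallest median fall of the 5 in shMed4, shMed10, shMed12, shMed30 and shMed28, without a test of the difference between roles. The 3 knockdowns with the highest median over the 33 genes were shMed21 (0.05), shCdk8 (0.03) and shUsp22 (0.03).

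**Figure D3:**
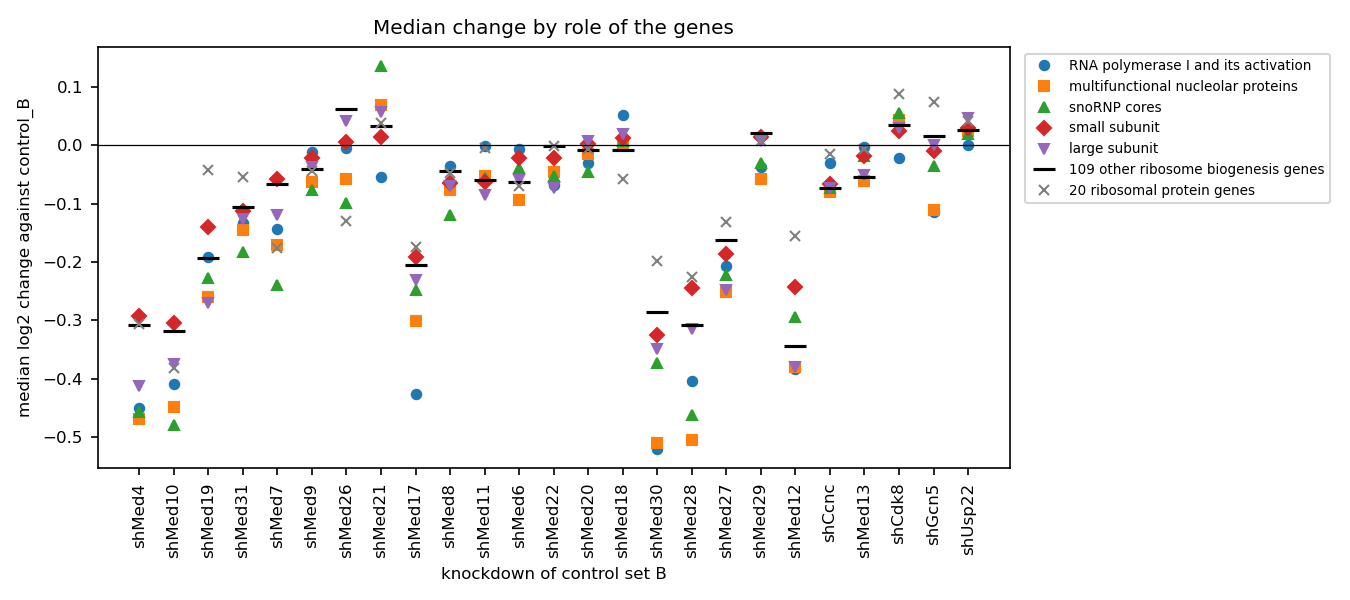
Median log2 change against control_B (vertical axis) in each knockdown of set B (horizontal axis, ordered as in the heat map) for the 5 roles of the 33 genes, for 109 other ribosome biogenesis genes (black bars) and for 20 ribosomal protein genes (crosses). All 5 role medians are below -0.2 in shMed4, shMed10, shMed28, shMed30 and shMed12, and they lie near 0 in shMed20, shMed29 and shUsp22.

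In the shMed26 and shMed21 knockdowns of the middle module single members were higher. In shMed26, 8 genes were higher and 6 lower (background 16.4% higher and 13.4% lower). Bop1 rose from 38.1 and 35.7 RPKM to 43.8 and 41.5 (0.21 ± 0.06, limma adjusted p 0.0084), and Rrp12 from 23.4 and 22.8 to 26.6 and 26.9 (0.20 ± 0.04). Pes1, Noc4l, Nop16, Nop14, Nolc1 and Polr1b rose as well, by 0.12 to 0.18. In the same libraries Npm1 fell to 357 and 376 RPKM (-0.31 ± 0.04), and Nop56, Dkc1, Gnl3, Ddx21 and Wdr43 also fell. In shMed21, 8 genes were higher and none lower (background 8.76% higher and 11.8% lower), with Nop56 (0.18 ± 0.04), Dkc1 (0.17 ± 0.04) and Nop14 (0.16 ± 0.04) the most changed. The 8 calls of shMed21 fell to 4 without its replicate 1, to 2 without its replicate 2 and to 3 without either control library. The 6 lower calls of shMed26 fell to 3 without its replicate 1 or without replicate 2 of control_B. In the fit over 80 libraries 2 genes were higher in shMed21, and 4 were higher and 2 lower in shMed26.

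A SAGA knockdown, shGcn5, had 6 of 33 genes lower and 3 higher (background 12.8 and 20.8%). The lower count is near its background and the higher one under it, so they are no result about these genes as a group. Ddx21 fell by 0.44 on the log2 scale in shGcn5 (limma adjusted p 9.2e-15), beside 0.45 in shMed4, and Tcof1 fell by 0.25. Mybbp1a, Nop2, Polr1b and Rrp9 fell by 0.11 to 0.16. Nop16 (0.23), Pes1 (0.19) and Nip7 (0.19) rose.

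Whether Mediator modules differ on average at these genes was asked with the knockdown as the unit. Whether subunits of 1 module act alike is not answered by these contrasts. No member was called between the kinase module (4 knockdowns) and the head and middle (15), between the upper tail (4) and the same 15, or between the middle (8) and the head (7). Over all genes tested limma called 0 in the former 2 contrasts (background 0%), and 1 lower and 0 higher of 12328 between middle and head (background 0.00811 and 0%). At an unadjusted p under 0.05 the counts were 0, 1 lower and 0, and the smallest adjusted p of a member was 1.00 for the kinase module, 0.775 for the upper tail and 0.735 for the middle by limma. All 33 members lay below 0 in the upper tail contrast (median -0.11, all genes 0.03). Between middle and head 32 did (median -0.08, all genes -0.002), and 15 did in the kinase module contrast (median 0.01, all genes -0.002). This direction was not tested. The lowest member values were -0.22 for the upper tail and -0.23 for the middle, and the spread within modules was wide. In the kinase module the median over the 33 genes was -0.35 in shMed12, -0.07 in shCcnc and 0.03 in shCdk8.

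Direct contrasts between knockdowns of 1 module, chosen after their values had been seen, gave the size of that spread. Against shCcnc, shMed12 had 30 genes lower (background 28.3%), and against shCdk8 and shMed13 it had 32 each (32.8 and 23.5%), with none higher. Rrp9 differed most between shMed12 and shCdk8 (-0.82 ± 0.06, limma adjusted p 7.1e-13). In the upper tail, shMed30 had 33 genes lower than shMed29 (27.8%), shMed28 had 32 (29.2%) and shMed27 had 26 (20.4%). In the middle, 31 genes were lower in shMed10 than in shMed9 (32.3%) and 30 in shMed4 than in shMed9 (30.2%). In the head, shMed17 had 31 lower than shMed18 (22.1%) and 29 lower than shMed22 (24.5%). Between shMed26 and shMed21, 7 were lower and 2 higher (13.6 and 21.0%). In the fit over 80 libraries these counts stayed within 1.5 times. In that over all 100 the count for shMed12 was 11 against shCcnc, 13 against shMed13 and 22 against shCdk8, for shMed27 it was 1, for shMed17 10 and 5, and for shMed26 against shMed21 it was 0. Without replicate 2 of shMed21, 1 gene was higher in shMed26.

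How far each hairpin lowered its own target differed too. The target was at 20.9 and 21.8% of control in the shMed4 libraries, 21.4 and 18.7% in shMed10, 19.5 and 16.8% in shMed30 and 23.4 and 28.0% in shMed12. It was at 14.2 and 14.5% in shCcnc, which had 7 members lower, at 31.3 and 32.9% in shMed29 and 60.5 and 68.9% in shMed18, which had none lower. The part of target level in these differences was not tested.

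Other genes of the pathway moved the same way in the same libraries. Of 109 further ribosome biogenesis genes tested, 95 were lower and 1 higher in shMed4, 97 and 2 in shMed10, 101 and 0 in shMed12, 97 and 1 in shMed28, 92 and 0 in shMed30 and 84 and 1 in shMed17. The counts were 80 and 2 in shMed19, 70 and 0 in shMed27, 46 and 1 in shMed31 and 39 and 14 in shMed7. The shares over all genes are those given above for each knockdown. In shMed26 8 were lower and 33 higher (background 13.4 and 16.4%), in shMed21 3 and 17 (11.8 and 8.76%), and in shMed29 9 and 5 (7.57 and 9.13%), which is near or under its background. The lowest medians over the 23 Mediator knockdowns were those of Senp3, a SUMO protease of the nucleolus (-0.36), Nle1, a factor of late large subunit assembly (-0.20), and Ubtf, the upstream binding factor of RNA polymerase I (-0.19). Senp3 measured 82.7 and 75.7 RPKM in control_B and 40.8 in both shMed12 libraries (-0.94 ± 0.07, limma adjusted p 4.6e-13). Ubtf was lower in 21 of 25 knockdowns, more than any of the 33 genes, and measured 46.1 and 44.3 RPKM in control_B and 30.2 and 27.8 in shMed28 (-0.62 ± 0.03). The highest medians were those of Ddx24, Utp3 and Utp23 (0.08 each). Ddx24, a DEAD-box helicase, measured 40.1 and 40.3 RPKM in control_B and 42.5 and 44.1 in shMed10, where it was higher (0.11 ± 0.03).

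Ribosomal protein genes, whose products are built into the ribosome itself, were lower in several of the same knockdowns. Of 20 tested, 19 were lower in shMed4 (median -0.31), 19 in shMed10 (-0.38), 17 in shMed30 (-0.20), 16 in shMed28 (-0.23), 15 in shMed7 (-0.18), 14 in shMed17 (-0.17) and 13 each in shMed12 (-0.16) and shMed27 (-0.13). In shMed19, where 27 of the 33 biogenesis genes were lower, 3 of 20 were lower (-0.04, background 26.3%). In shMed31 3 of 20 were lower (-0.05, background 12.1%). These counts in shMed19 and shMed31 are under or near their background. In shMed26 10 of 20 were lower and none higher (background 13.4 and 16.4%). For the other knockdowns the shares over all genes are those given above.

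Myc itself was lower in 20 of the 23 Mediator knockdowns and higher in 1. It measured 24.6 and 25.5 RPKM in control_B, 9.66 and 9.63 in shMed28, 10.0 and 10.4 in shMed12, 14.1 and 13.2 in shMed4 and 41.5 and 39.9 in shMed26. It was also low in shMed22, at 11.3 and 10.9 RPKM (-1.11 ± 0.04), where 6 of the 33 genes were lower. Mycn changed by -0.14 ± 0.06 in shMed22 (limma adjusted p 0.12) and by -0.92 ± 0.06 in shMed28. The part of either gene in the fall of the ribosome biogenesis genes was not tested.

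Markers of cell identity moved with the same knockdowns. Of 11 ES cell markers, 9 were lower in shMed4, 9 in shMed10 (1 higher), 9 in shMed12 and 10 in shMed30, and 2 were lower and 2 higher in shMed29. In shMed4, shMed10, shMed12 and shMed30, 26.1 to 34.3% of all genes were lower and 27.3 to 33.0% higher. In shMed29 the shares were 7.57 and 9.13%. The summed level of the ES cell markers was 980 and 964 RPKM in shMed4, 1041 and 968 in shMed10, 1058 and 1090 in shMed12 and 1811 and 1755 in shMed29. The 12 feeder markers summed to 11.7 and 11.2 RPKM in shMed10, 11.7 and 11.5 in shMed12, 7.40 and 6.98 in shMed4 and 6.19 and 6.41 in shMed30, against 3.09 to 3.36 in control_B. Of the 4 feeder markers that passed the filter (Col1a1, Col1a2, Col5a2 and Fbn1), 4 were higher in shMed10, shMed12 and shMed30 and 3 in shMed4 (background 27.3 to 33.0% higher). Lum and Dcn were at 0 in 1 library each of shMed4 and shMed30, and Lum in 1 of shMed12. Postn was at 0 in 1 library each of control_B, shMed4 and shMed30. In shMed17, which had 30 of the 33 genes lower, the feeder sum was 3.35 and 3.72 RPKM. The ES marker sum there was 1313 and 1288 RPKM with 10 of 11 markers lower (background 25.8%). In shMed31, which had 21 of the 33 genes lower, the ES sum was 1681 and 1657 RPKM. There 5 markers were lower and 1 higher (background 12.1 and 17.7%). The part of lost ES identity or of other cells in the fall of the ribosome biogenesis genes was not tested.

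In set A, each knockdown gave 1 usable library, so differences from the mean of both control_A libraries are described without a test. Over 33 genes in each of 20 knockdowns, 21 values were at least 0.5 lower and 2 at least 0.5 higher on the log2 scale. Of all gene values, 2.38% were lower and 3.36% higher by that much. Summed in this way, the lower values of the members are near that share and the higher ones under it. Of the 21, 8 were in shTaf12 (background 5.15%), 7 in shTaf6 (5.84%), 3 in shTbp (4.62%), 2 in shMed16 (3.70%) and 1 in shTaf5 (1.94%). The 2 higher values were Bop1 in shTaf3 (5.73%) and in shTaf8 (2.11%). The median over the 33 genes was -0.30 in shTaf12 and -0.29 in shTbp, where all 33 lay below 0, and -0.13 in shTaf6. The median over all genes was 0.01 to 0.08 in the 15 TFIID libraries. In the tail knockdown shMed24 the median over the 33 genes was -0.15, with 32 of 33 below 0 but 0 at least 0.5 lower. There 95 of 109 other ribosome biogenesis genes lay below 0, while the median over all genes was -0.004. Of the 11 ES cell markers, 6 were at least 0.5 lower in shMed24, as were 3.14% of all genes. The ribosomal protein genes had a median of -0.54 in shTaf12, -0.53 in shTaf6 and -0.21 in shTbp. They also had medians of -0.40 in shTaf3 and -0.39 in shTaf5, where the medians over the 33 genes were -0.04 and 0.04. Their medians were -0.39 in shTaf1, -0.34 in shTaf2, -0.34 in shTaf13, -0.29 in shTaf10 and -0.07 in shTaf11. The medians over the 33 genes were -0.10, -0.06, -0.07, -0.01 and 0.04 in the same order.

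Single genes show where these values came from. Dkc1 measured 50.9 and 49.7 RPKM in control_A and 30.4 in shTaf12, 32.7 in shTaf6 and 38.6 in shTbp. Npm1 measured 410 and 364 RPKM in control_A, 258 in shTaf12, 257 in shTbp and 253 in shTaf6. Ncl measured 238 and 212 RPKM in control_A, 141 in shTaf12, 142 in shTaf6 and 164 in shTbp. All 9 of these knockdown values lie below both controls, but the genes and knockdowns are shown because their values are low. That they lie below is therefore no separate result. Mybbp1a measured 130 and 144 RPKM in control_A and 88.1 in shTaf12, Gnl3 94.9 and 95.6 against 64.0. In shMed16, Npm1 was at 236 RPKM and Fbl at 29.7 against 43.2 and 48.6 in the controls, while the median over the 33 genes was -0.04. The ES marker sum was 977 RPKM in shTaf12, 936 in shTaf6 and 1026 in shTbp, against 1384 and 1523 in control_A, and the feeder sum was 7.37, 4.17 and 9.46 against 4.49 and 3.79. The part of these markers in the differences was not tested.

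Across the 15 TFIID libraries the lowest medians were those of Mybbp1a (-0.35), Tcof1 (-0.27) and Utp20 (-0.25), and the highest those of Bop1 (0.26), Noc4l (0.16) and Fbl (0.12). No member lay below both controls, or above both, in all 15 libraries, as 1.13 and 2.84% of all genes did. With knockdowns as replicates, limma called 0 members for TFIID against control_A (3 lower and 1 higher at an unadjusted p under 0.05; background 0.0163 and 0.220%) and 0 for the tail against control_A (1 and 0; background 0.00816 and 0.0571%). The smallest limma adjusted p in the former was 0.295 for Utp20 (-0.23 ± 0.08), followed by Mybbp1a, Bop1, Tcof1 and Ltv1, and in the latter 0.454 for Wdr12 (-0.37 ± 0.12), followed by Polr1a, Nob1, Polr1b and Tcof1.

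TFIID differed from the tail at 2 members, 1 of 33 lower and 1 of 33 higher, which is near the background of 2.60% lower and 4.77% higher and is no result about these genes as a group. Utp20, a scaffold of the small subunit processome, was lower after TFIID knockdown than after tail knockdown (-0.21 ± 0.05, limma adjusted p 0.0216), and Bop1 was higher (0.27 ± 0.08, limma adjusted p 0.0475). Mybbp1a (-0.27 ± 0.08, limma adjusted p 0.0552), Polr1a (0.21 ± 0.07, 0.0627) and Noc4l (0.17 ± 0.07, 0.0972) did not pass. Bop1 measured 28.0 and 36.7 RPKM in the 2 controls, which are far apart for this gene. The controls enter the values against control_A and the spread of the fit, but not the difference of TFIID from the tail. The call of Bop1 was lost without any 1 of the 5 tail knockdowns and under either rescaling of the libraries or with no filter, and that of Utp20 without shMed15, shMed23 or shMed24. Of the 109 other genes of the pathway, Wdr46, Tbl3, Las1l, Ftsj3, Rbm28 and Exosc9 were higher after TFIID than after tail knockdown and none was lower. Against 4.77% higher and 2.60% lower of all genes, these counts are near or under the background.

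**Figure D4:**
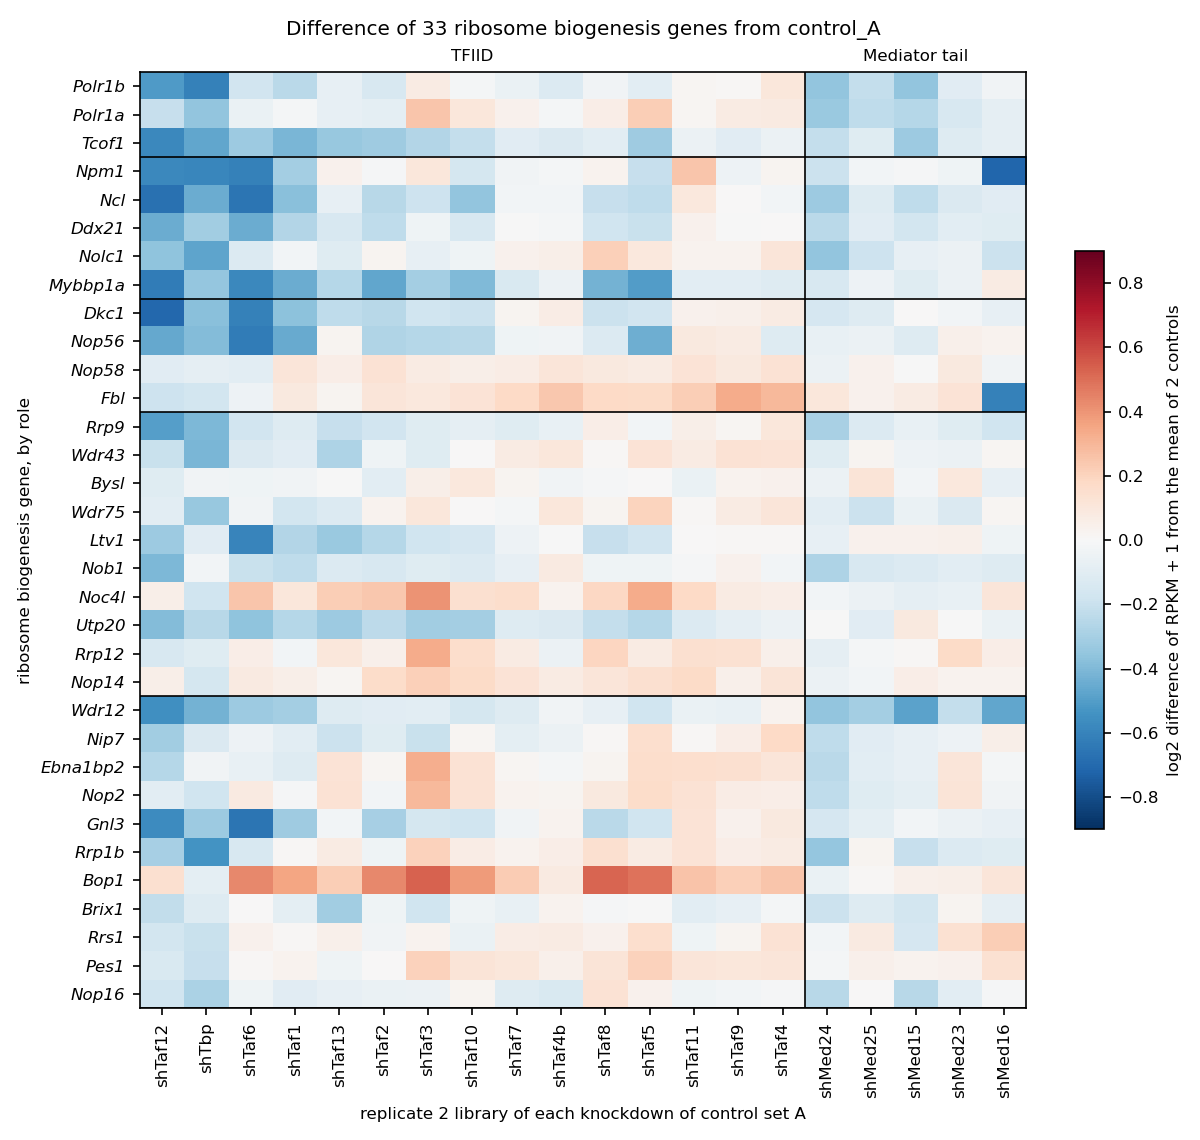
Log2 difference of RPKM + 1 of 33 ribosome biogenesis genes (rows, in blocks by role) in the replicate 2 library of 15 TFIID and 5 Mediator tail knockdowns (columns, 1 library each) from the mean of both control_A libraries, with blue lower and red higher. The shTaf12, shTbp and shTaf6 columns hold 18 of the 21 values at or below -0.5, and the Bop1 row holds both values at or above 0.5.

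In set C, limma called 0 members for shMed1 and 0 for shMed14, with 0 at an unadjusted p under 0.05 in either direction, and 0 of all 11872 genes (background 0%). The median over the 33 genes was -0.05 in each. The hairpin targets of these libraries stood at 61.5 to 99.1% of control, as given above.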

How the data were processed

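Messenger RNA of V6.5 mouse ES cells was sequenced in 100 libraries made, per the labels, with a KAPA stranded mRNA kit. Alignment used TopHat2 and mm9, per the submitters' processing notes, and the authors deposited RPKM values, 1 per RefSeq transcript. No source used here names the counting tool. Each table has 34995 lines, of which 1133 repeat an identifier and were counted once. Of 33862 identifiers, 33485 were named from RefSeq GRCm38.p6 and 188 from GENCODE vM21. Read depth was estimated from the steps of low RPKM values.

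Tests used limma 3.58.1 (trend) in R 4.3.3 on log2(RPKM + 1), two-sided, for genes at 1 RPKM or more in 2 or more libraries of the fit, adjusted over all genes within a comparison, threshold 0.05. A fold change on this scale understates that of low genes. Sets A, B and C were fitted apart. Contrasts between modules used the mean of the 2 libraries of a knockdown. Modules were assigned from general knowledge of Mediator. Groups follow the labels, and of the set A knockdowns replicate 2 alone was used, except in the alternative fit over all 100 libraries. In data simulated for shMed4 against control_B (12505 genes), 93% of changes of 0.5 and 98% of changes of 1 were recovered, with 10 false calls. Changes were set in 100 genes of each size in shMed4 alone, with independent normal noise at the library-to-library spread. The rates therefore do not cover spread between cultures or a knockdown in which many genes change.

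The 33 genes, the gene lists and the direct contrasts were chosen with earlier results of these data known. Named in full were the members with the lowest and highest medians, the most and fewest calls and the smallest adjusted p in each contrast. Alternatives covered the pseudocount, 2 scalings, the filter, all 100 libraries or 80 of them in 1 fit, a replicate block, single libraries left out and stricter sizes of change. Promoter windows are from RefSeq GRCm38.p6. Errors are standard errors of the fit unless given as SD.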

Additional observations from a re-analysis of the deposited data

Results flagged for a closer look

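Among the 7 head knockdowns, shMed17 stood apart from the others in its median over the 33 genes (-0.24, next shMed8 at -0.06). About 1 in 20 groups would be marked in this way by chance.

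Members differed between knockdowns of 1 module in direct contrasts of the 2 knockdowns, which were chosen after their values had been seen. The count of 33 lower was 30 in shMed12 against shCcnc (28.3% of all genes), 32 against shCdk8 (32.8%) and 32 against shMed13 (23.5%). It was 33 in shMed30 (27.8%), 32 in shMed28 (29.2%) and 26 in shMed27 (20.4%) against shMed29. It was 31 in shMed10 (32.3%) and 30 in shMed4 (30.2%) against shMed9, and 31 in shMed17 against shMed18 (22.1%) and 29 against shMed22 (24.5%). In shMed26 against shMed21 it was 7 (13.6%), with 2 higher (21.0%).

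Between the TFIID and the tail knockdowns, a contrast of the groups set Utp20 lower (-0.21) and Bop1 higher (0.27) after TFIID knockdown. These are 1 of 33 members each way, near the 2.60% lower and 4.77% higher of all genes. The call of Bop1 was lost under either rescaling, with no filter and without any 1 tail knockdown, and that of Utp20 without shMed15, shMed23 or shMed24.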

How the results depend on the processing

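The counts of members kept within 1.5 times of their values under the other alternatives run, with these exceptions. Of the 333 lower and 25 higher calls of set B, 138 and 1 were made in a fit over all 100 libraries, 274 and 11 in the fit over 80, and 43 and 0 with an absolute log2 change of at least 0.5, and the higher calls were 16 without replicate 1 of control_B and 14 without replicate 2. For TFIID against the tail, upper-quartile and median-of-ratios scaling gave 2 lower and 0 higher each, no filter gave 0 higher, and leaving out tail knockdowns gave 0 to 1 lower and 0 higher. In set A, the 21 values past the fold lower were 32 under upper-quartile scaling, and the 2 higher were 0 under either scaling, 0 without replicate 1 of control_A and 7 without replicate 2. At a log2 difference of 1 both were 0. No result reversed, and the cause of these shifts was not tested. Of 594 alternatives for single knockdowns and pairs, 493 stayed within 1.5 times, 17 were higher and 84 lower.

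No label says what a replicate number shares, so the numbers were not taken as pairs in the main fit. The deviations of same-numbered libraries in set B had a median correlation of 0.096 (-0.018 to 0.220, above 0 in 320 and over 0.1 in 153 of 325 pairs of groups). These correlations are small but almost all positive. Replicate 2 was the deeper library in all 26 groups of set B. With the replicate number as a block, 372 calls were lower and 31 higher in set B, and 0 in set C. The block moved the count lower from 6 to 10 in shMed6 and shMed11, from 2 to 6 in shMed13, from 1 to 5 in shMed9, and from 0 to 1 in shMed20, 1 in shMed21 and 2 in shMed29, and the count higher from 3 to 6 in shCdk8.

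With 2 libraries a group in set B and 1 a knockdown in set A, the number of libraries limits the precision. In set A no spread within a knockdown is known.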
